A study of Mus musculus with 44 samples.

Results

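Of the 27179 genes in the count tables, 8 encode small GTPases, or a protein that loads them, and were described as induced by neuronal activity: Gem, Rem2, Rrad, Rasd1, Arl4d, Arl5b, Rnd3 and Arhgef3. They were chosen by their symbols, and the list was drawn up with their response to training in these same libraries known, so every difference between time points below is a description and carries no test. Dorsal hippocampus of 36 mice was sequenced, with 1 library per mouse and 6 mice in each of 6 groups, 3 labelled male and 3 labelled female. WT mice were compared with homozygous Kdm5bDARID/DARID mice (mutants), whose constitutive allele lacks exons 2 to 4 of Kdm5b, so that the ARID domain and part of the JmjN domain of this H3K4me3 demethylase are missing in every tissue. All mice, WT and mutant, were F2 animals of a C57BL/6J x 129S2/Sv cross and 7 to 8 weeks old. The groups at 0 h were untrained, and the others were collected 1 h or 3 h after contextual fear conditioning, in which foot shocks are paired with a chamber.

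Small GTPases are molecular switches that are active with GTP bound and inactive with GDP bound. Gem, Rem2 and Rrad belong to the RGK family, whose members bind the beta subunits of voltage-gated calcium channels and lower calcium entry. Rasd1 (Dexras1) is a Ras-like protein first described as induced by dexamethasone, and in neurons it is linked to nitric oxide synthase through an adaptor. Arl4d and Arl5b are Arf-like proteins that work in membrane traffic, Arl4d by bringing Arf exchange factors to the plasma membrane and Arl5b at the trans-Golgi network. Rnd3 is an unusual small GTPase that stays bound to GTP. Arhgef3 (XPLN) is not a GTPase: it is an exchange factor that loads small GTPases with GTP. Several of these genes are known as early response genes, transcribed soon after neurons fire.

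The 8 genes did not share 1 time course. Gem, Arl4d and Arl5b had higher 1 h than 0 h means in WT and in mutants, Rem2, Rasd1 and Arhgef3 were also higher at 1 h but by less, Rnd3 was lower after training in both, and Rrad was higher at 1 h in WT mice and lower in mutants. The 8 are therefore called by their names or as the GTPase genes below.

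On GRCm38 the RGK genes lie at chr4:11704447-11714993 (+ strand, Gem, Entrez 14579), chr14:54476100-54480434 (+, Rem2, 140743) and chr8:104628070-104631350 (-, Rrad, 56437). Rasd1 (19416) lies at chr11:59963181-59964944 (-), Arl4d (80981) at chr11:101665541-101667832 (+) and Arl5b (75869) at chr2:15055252-15082456 (+). Rnd3 (74194) lies at chr2:51130439-51149111 (-) and Arhgef3 (71704) at chr14:27114461-27403916 (+). Counts are over the exons of each gene.

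The start-site windows of 4 of them are shown first because these genes had unlike time courses and because these windows differ in the response elements they hold. They come from RefSeq on GRCm38.p6, the same assembly as the mm10 genome of the counts, and hold 250 bases before to 50 bases after a start of transcription. Windows were at hand for 5 of the 8 genes: 1 each for Arl4d, Arl5b, Rnd3 and Rem2, and 4 for Arhgef3. Capitals mark matches on either strand to the cyclic AMP response element CRE (TGACGTCA), its core (TGACG), the AP-1 site (TGACTCA), the EGR1 site (GCGTGGGCG or GCGGGGGCG), the TATA box (TATAAA), the E-box CACGTG, and the serum response element SRE; every CRE also holds the core on both strands. Arl4d lies at chr11:101665291-101665590 (+ strand), Arl5b at chr2:15055070-15055369 (+ strand), Rnd3 at chr2:51149062-51149361 (- strand) and Rem2 at chr14:54475850-54476149 (+ strand), each printed 5′ to 3′ along the gene.
Arl4d: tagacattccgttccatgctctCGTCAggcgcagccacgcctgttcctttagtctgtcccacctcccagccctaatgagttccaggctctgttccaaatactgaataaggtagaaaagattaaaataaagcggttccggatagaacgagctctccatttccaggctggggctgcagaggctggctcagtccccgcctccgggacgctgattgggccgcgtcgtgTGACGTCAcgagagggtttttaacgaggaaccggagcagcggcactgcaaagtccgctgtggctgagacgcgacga
Arl5b: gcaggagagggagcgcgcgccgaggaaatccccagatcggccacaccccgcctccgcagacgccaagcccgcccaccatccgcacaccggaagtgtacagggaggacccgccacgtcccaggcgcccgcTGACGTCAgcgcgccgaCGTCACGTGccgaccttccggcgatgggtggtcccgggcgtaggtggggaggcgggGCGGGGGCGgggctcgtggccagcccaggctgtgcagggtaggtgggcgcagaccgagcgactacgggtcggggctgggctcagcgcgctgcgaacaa
Rnd3: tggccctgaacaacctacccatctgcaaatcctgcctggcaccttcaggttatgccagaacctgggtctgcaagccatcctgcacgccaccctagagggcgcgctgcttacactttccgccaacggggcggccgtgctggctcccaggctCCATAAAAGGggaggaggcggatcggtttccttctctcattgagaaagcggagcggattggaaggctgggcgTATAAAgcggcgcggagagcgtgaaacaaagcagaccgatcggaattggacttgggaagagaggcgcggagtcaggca
Rem2: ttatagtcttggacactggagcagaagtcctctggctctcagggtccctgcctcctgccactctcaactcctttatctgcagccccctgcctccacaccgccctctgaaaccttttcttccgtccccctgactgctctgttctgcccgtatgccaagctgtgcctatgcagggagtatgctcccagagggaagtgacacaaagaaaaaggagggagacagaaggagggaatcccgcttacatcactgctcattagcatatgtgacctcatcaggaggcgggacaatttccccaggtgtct

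A full CRE stood in the windows of Arl4d, beginning 26 bases before the start, and of Arl5b, beginning 121 bases before it. Of the 32851 RefSeq windows of the same length, 1.79% held a CRE and 20.8% the core alone or within a CRE. Arl5b also held 1 EGR1 site (3.47% of all windows) and 1 E-box (7.15%). Rnd3 held an SRE, beginning 100 bases before its start (1.63% of all windows), and a TATA box 28 bases before it (13.6%). Rem2 had no match to any of the 7 motifs. None of the 4 Arhgef3 windows held a full CRE, and 2 held the core. None of the windows of these 5 genes held an AP-1 site (5.2% of all windows). A match is a run of letters and was not tested for binding.

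Library totals ran from 40274435 to 107000233 counts, and the lowest count of any of the 8 genes in a library was 18, for Rrad. Levels below are CPM, counts scaled by edgeR's TMM factors to a common library size. In 2 libraries the transcripts of the X-linked Xist and of 4 Y-linked genes went against the sex label: the WT 1 h library labelled male 1, and the mutant 3 h library labelled female 2. Both also stood apart in the 8 genes. In the WT 1 h library, Gem (2.93 CPM), Rem2 (16.7), Arl4d (9.70), Arl5b (14.6) and Arhgef3 (91.2) were each below the other 5 libraries of their group, and so were Fos, at 11.7 CPM against 19.2 to 34.4, and Arc, at 113 against 149 to 372, while Npas4, at 16.6, lay within the others (9.89 to 23.2). In the mutant 3 h library, Gem (7.35 CPM), Rrad (2.56), Arl4d (23.7), Arl5b (24.4) and Rnd3 (14.6) were each above the other 5, as were Fos, at 43.9 CPM against 6.42 to 11.6, and Arc, at 332 against 73.1 to 125, and Npas4, at 18.6 against 6.04 to 10.8. Set against the other group, the WT 1 h library lay within the range of the 5 other mutant 3 h libraries for 6 of 11 genes (the 8 with Fos, Npas4 and Arc), and the mutant 3 h library within that of the 5 other WT 1 h libraries for 7 of 11. The targeted gene Kdm5b was 79.6 CPM in the WT 1 h library, below the 17 other WT libraries (81.5 to 97.1). It was 93.6 in the mutant 3 h library, above the 17 other mutant libraries (75.6 to 90.6). The 2 ranges overlap, so a Kdm5b level does not give the genotype of a single library. Whether the 2 libraries were exchanged was not tested. An exchange would change the genotype and the time of both, and so every value for WT at 1 h and for mutants at 3 h. Both were kept under their labels. Values without them, which do not rest on these labels, are given for the 8 genes and for Kdm5b, beside the main ones or further on. Relatives, other gene lists and cell markers are given with both libraries kept, unless said otherwise. Kdm5b, the targeted gene, was counted over its whole length, so its counts do not report on the deleted exons: its mean was 86.5 ± 2.84 CPM (SD, n = 6) in WT and 80.5 ± 3.96 in mutants at 0 h, and over the 36 libraries the log2 fold change was -0.08 (SE 0.02, adjusted p = 0.0581). Without the 2 libraries it was -0.10 (SE 0.02, adjusted p = 0.00131), past the threshold, and the means were 92.6 ± 2.92 CPM (n = 5) in WT at 1 h and 82.4 ± 3.32 (n = 5) in mutants at 3 h.

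**Figure D1:**
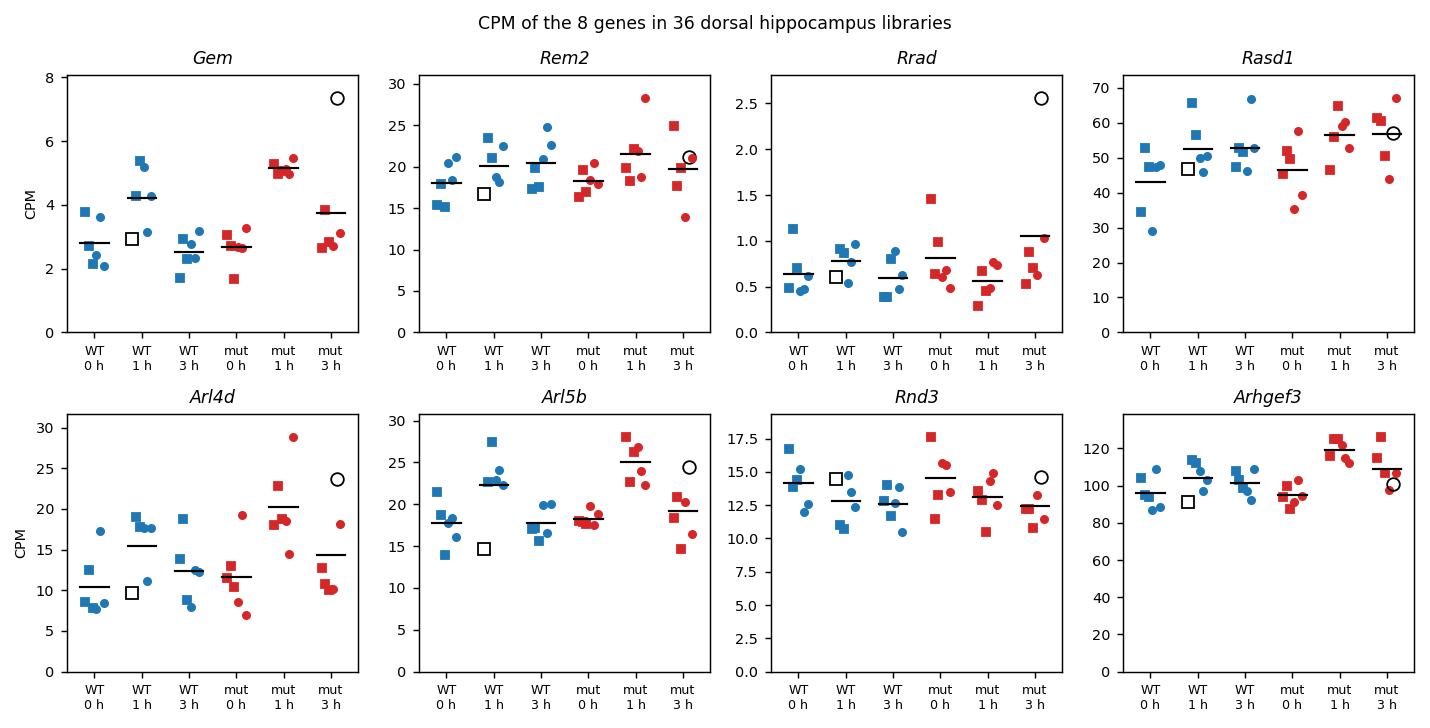
CPM (counts relative to the TMM-scaled library size, linear axis from 0) of each of the 8 genes in every library, by genotype (WT blue, mutant red) and time; squares are libraries labelled male, circles female, bars the group means, and large open black symbols the 2 libraries whose sex transcripts go against the label. In the Gem panel the 6 mutant libraries at 1 h sit between 4.97 and 5.48 CPM, above all 6 at 0 h, and the open circle at 3 h stands at 7.35 CPM.

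Levels of the 8 genes were compared per kilobase of exon, over all 36 libraries. Lengths came from GENCODE vM21, while the annotation of the counts is not given. An error in a length would be the same in every library, so the numbers of libraries below do not cover it. Rasd1 had the highest level, with a mean of 31.9 ± 5.53 CPM per kb (SD, n = 36), followed by Arhgef3 at 23.0 ± 2.44. Arl4d (10.2 ± 3.82) and Rem2 (8.76 ± 1.32) came next and were not ordered: Arl4d was the higher in 20 of 36 libraries. Rnd3 (2.99 ± 0.393), Arl5b (1.92 ± 0.361) and Gem (1.67 ± 0.621) were lower, with Rnd3 above Arl5b in 34 of 36 libraries and Arl5b above Gem in 31 of 36. Rrad was lowest at 0.470 ± 0.250 CPM per kb, below Gem in 36 of 36 libraries. Among the RGK genes the order was Rem2, Gem, Rrad and then Rem1, the member of the family outside the 8, at 0.196 ± 0.0657 CPM per kb, and Rrad was above Rem1 in 35 of 36 libraries.

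Gem and Arl4d had the largest log2 fold changes of the 8 at 1 h in both genotypes, and their order depended on single libraries. In WT mice Gem ran from 2.08 to 3.76 CPM at 0 h (median 2.56), from 2.93 to 5.38 at 1 h (median 4.27) and from 1.69 to 3.17 at 3 h (median 2.56). In mutants it ran from 1.68 to 3.26 CPM at 0 h (median 2.7), from 4.97 to 5.48 at 1 h (median 5.08) and from 2.65 to 7.35 at 3 h (median 2.98). The 1 h mutant libraries stood above all 0 h mutant libraries with no overlap, whereas the WT groups at 0 and 1 h overlapped. The share of all genes whose groups separate in this way was not computed, here or for Arl5b and Arhgef3 below. Nothing is read from such a separation. The log2 fold change of Gem at 1 h against 0 h was 0.59 (SE 0.20) in WT and 0.95 (SE 0.13) in mutants, or 1.5-fold and 1.93-fold. At 3 h Gem was back near its 0 h level in WT mice (log2 fold change -0.14, SE 0.19), and in mutants it stood at 0.47 (SE 0.24), which became 0.19 (SE 0.18) without the library of discordant sex. From 1 h to 3 h the value was -0.73 (SE 0.18) in WT and -0.47 (SE 0.22) in mutants. Without the discordant library, the 5 other mutant libraries at 3 h lay below all 6 at 1 h, with a log2 fold change of -0.76 (SE 0.12).

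The other RGK genes did not follow Gem. Rem2, which limits dendritic branching in neurons, had a WT range of 15.1 to 21.2 CPM at 0 h (median 18.2), 16.7 to 23.5 at 1 h (median 19.9) and 17.3 to 24.8 at 3 h (median 20.4). Its mutant range was 16.4 to 20.4 CPM at 0 h (median 18.2), 18.3 to 28.3 at 1 h (median 20.9) and 13.9 to 24.9 at 3 h (median 20.5). Groups overlapped at all times, and the log2 fold change at 1 h was 0.16 (SE 0.10) in WT and 0.23 (SE 0.09) in mutants. Rrad, best known from skeletal and heart muscle, rested on 18 to 150 counts per library. In WT mice it ran from 0.453 to 1.13 CPM at 0 h (median 0.550), from 0.535 to 0.968 at 1 h (median 0.820) and from 0.386 to 0.889 at 3 h (median 0.552). In mutants it ran from 0.484 to 1.46 CPM at 0 h (median 0.658), from 0.284 to 0.772 at 1 h (median 0.579) and from 0.524 to 2.56 at 3 h (median 0.787). Its signs at 1 h were opposite, with log2 fold changes of 0.31 (SE 0.26) in WT and -0.48 (SE 0.32) in mutants, and its spread within groups, a mean coefficient of variation of 41.6%, was the widest of the 8. The value for mutants at 3 h against 0 h was 0.35 (SE 0.42) with the discordant library and -0.09 (SE 0.30) without it. Of the muscle markers Acta1, Ckm, Myh6 and Myl1, 3 were detected, and their summed level ran from 9.03 to 15.6 CPM over the 6 groups; whether cells carrying them supply the Rrad counts was not tested. An antisense gene, Gm33023, overlaps Rrad and is not among the counted genes, and the strand setting of the counting is not given, so its reads could be counted as Rrad.

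Rasd1 was higher at 1 h and stayed there at 3 h. Its WT range was 28.9 to 52.9 CPM at 0 h (median 47.4), 45.9 to 65.8 at 1 h (median 50.2) and 46.1 to 66.8 at 3 h (median 52.2). In mutants the range was 35.2 to 57.6 CPM at 0 h (median 47.5), 46.5 to 64.9 at 1 h (median 57.5) and 44.0 to 67.1 at 3 h (median 58.8). All these groups overlapped. Log2 fold changes at 1 h were 0.28 (SE 0.14) in WT and 0.28 (SE 0.12) in mutants, and those at 3 h were 0.29 (SE 0.15) and 0.29 (SE 0.13). From 1 h to 3 h Rasd1 moved by 0.01 (SE 0.10) in each genotype.

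Both Arf-like genes had their highest group median at 1 h in each genotype. Arl4d ran in WT mice from 7.70 to 17.3 CPM at 0 h (median 8.46), from 9.70 to 19.0 at 1 h (median 17.7) and from 7.94 to 18.8 at 3 h (median 12.4). Mutant values ran from 6.93 to 19.2 CPM at 0 h (median 10.9), from 14.5 to 28.8 at 1 h (median 18.6) and from 10 to 23.7 at 3 h (median 11.8). At 0 h 1 library per genotype stood highest, at 17.3 CPM in WT and 19.2 in mutants, and the groups overlapped. The log2 fold change at 1 h was 0.58 (SE 0.25) in WT and 0.80 (SE 0.25) in mutants; leaving out the mutant 0 h library labelled female 2, which had 19.2 CPM, gave 1.05, and leaving out the WT 0 h library labelled female 2, which had 17.3 CPM, gave 0.80 in WT. Arl5b had a WT range of 13.9 to 21.5 CPM at 0 h (median 18), 14.6 to 27.4 at 1 h (median 22.8) and 15.6 to 20.0 at 3 h (median 17.2). The mutant range was 17.5 to 19.8 CPM at 0 h (median 17.9), 22.3 to 28.0 at 1 h (median 25.1) and 14.6 to 24.4 at 3 h (median 19.4). All 6 mutant libraries at 1 h were above all 6 at 0 h. The lowest WT library at 1 h, at 14.6 CPM, was the one of discordant sex, and the 5 others (22.3 to 27.4) lay above every WT library at 0 h. The log2 fold change at 1 h was 0.33 (SE 0.14) in WT, 0.44 (SE 0.10) without that library, and 0.45 (SE 0.07) in mutants. At 3 h Arl5b stood at 0.00 (SE 0.10) of its 0 h level in WT and 0.07 (SE 0.10) in mutants. Arl5b overlaps Nsun6 on the opposite strand, and reads of the 2 genes may not be told apart by the counting.

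Rnd3 and the exchange factor gene Arhgef3 went opposite ways after training. Rnd3 ran in WT mice from 12 to 16.7 CPM at 0 h (median 14.2), from 10.7 to 14.8 at 1 h (median 13.0) and from 10.5 to 14.0 at 3 h (median 12.7). In mutants Rnd3 ran from 11.5 to 17.6 CPM at 0 h (median 14.5), from 10.5 to 14.9 at 1 h (median 13.3) and from 10.8 to 14.6 at 3 h (median 12.2). Its log2 fold changes were negative at both times, at -0.15 (SE 0.10) in each genotype at 1 h, and at -0.16 (SE 0.09) in WT and -0.23 (SE 0.10) in mutants at 3 h, with overlapping groups. Arhgef3, the most tightly measured of the 8 (mean coefficient of variation 7.35%), ran in WT mice from 86.7 to 109 CPM at 0 h (median 94.3), from 91.2 to 114 at 1 h (median 105) and from 92.2 to 109 at 3 h (median 101). The mutant range of Arhgef3 was 87.5 to 103 CPM at 0 h (median 94.2), 112 to 125 at 1 h (median 119) and 97.5 to 126 at 3 h (mean 109 ± 10.2, SD, n = 6). The 1 h mutant libraries lay above all 6 at 0 h, and the WT groups overlapped. At 1 h against 0 h the log2 fold change was 0.11 (SE 0.07) in WT, 0.16 (SE 0.06) without the library of discordant sex, and 0.33 (SE 0.05) in mutants, and at 3 h it was 0.07 (SE 0.06) and 0.20 (SE 0.06). Gm49616 overlaps Arhgef3 on the same strand and is not among the counted genes, so its reads could be counted as Arhgef3.

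Counts of calls between time points only describe the choice of the genes. By edgeR at an adjusted p under 0.05, 3 of the 8 (Gem, Arl5b and Arhgef3) were called in mutants at 1 h against 0 h, where 0.312% of 17282 genes were called. None of the 8 was called in the other 5 time comparisons, in each of which 0% of the genes tested were called: WT 1 h against 0 h (928 genes with an unadjusted p under 0.05 and 9 called by DESeq2), WT 3 h against 0 h (1436 and 80), WT 3 h against 1 h (1288 and 63), mutant 3 h against 0 h (1481 and 142) and mutant 3 h against 1 h (1387 and 73). DESeq2 called 1 of the 8 in these 5 comparisons, Gem in WT mice at 3 h against 1 h. Nothing is read from these counts. The comparisons of 1 h and 3 h with 0 h share the 0 h libraries of their genotype.

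Further values without the 2 libraries of discordant sex were these. At 1 h against 0 h in WT, Gem was at 0.68 (SE 0.19), Arl4d at 0.68 (SE 0.24), Rrad at 0.41 (SE 0.26), Rasd1 at 0.33 (SE 0.14), Rem2 at 0.20 (SE 0.10) and Rnd3 at -0.19 (SE 0.11). At 3 h against 1 h in WT, Gem was at -0.81 (SE 0.18), Arl4d at -0.47 (SE 0.20), Arl5b at -0.43 (SE 0.08), Rrad at -0.45 (SE 0.28) and Rasd1 at -0.02 (SE 0.11). At 3 h against 0 h in mutants, Rasd1 was at 0.28 (SE 0.14), Arhgef3 at 0.21 (SE 0.06), Rnd3 at -0.27 (SE 0.10), Arl4d at 0.10 (SE 0.26), Rem2 at 0.09 (SE 0.12) and Arl5b at 0.00 (SE 0.09). At 3 h against 1 h in mutants, Rasd1 was at 0.00 (SE 0.12), Arl4d at -0.70 (SE 0.20), Arl5b at -0.46 (SE 0.10) and Rrad at 0.45 (SE 0.28), and Rem2, Rnd3 and Arhgef3 lay between -0.14 and -0.11. Levels per kilobase over the 34 other libraries were 1.63 ± 0.551 CPM per kb for Gem and 0.438 ± 0.157 for Rrad, and the means of the other 6 genes moved by at most 0.1.

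**Figure D2:**
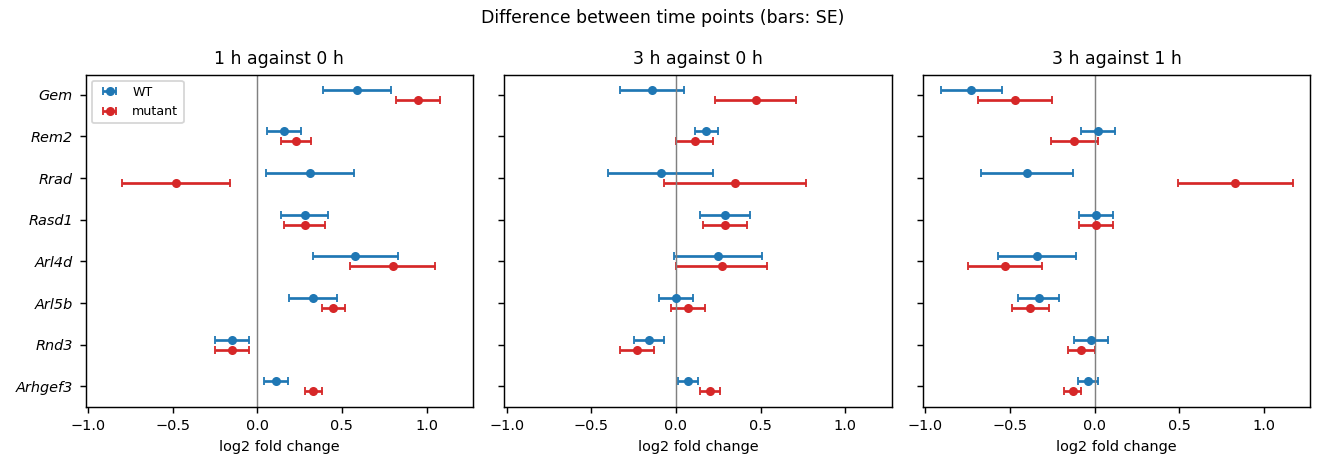
Log2 fold change of each of the 8 genes between time points, from edgeR, in WT (blue) and mutant (red) mice; bars are the standard error, with 6 libraries per group. At 1 h against 0 h Gem stood at 0.59 in WT and 0.95 in mutants, Rnd3 at -0.15 in both, and Rrad at 0.31 and -0.48.

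Whether the mutation shifted these genes is a different contrast from the training response that chose them, although earlier results of these data were known, and it was tested with sex as a covariate. At 0 h none of the 8 was called and 0% of 17336 genes were (1066 had an unadjusted p under 0.05, and DESeq2 called 15 genes, none of them among the 8). Log2 fold changes of mutant against WT ran from -0.07 (SE 0.20) for Gem to 0.32 (SE 0.26) for Rrad, and adjusted p ran from 0.911 to 0.979. The narrowest 95% interval was that of Arhgef3, from -0.15 to 0.10, and the widest that of Arl4d, from -0.38 to 0.71.

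At 1 h after training 7 of the 8 had positive log2 fold changes in mutants, with a median of 0.13. Over all genes the median was 0.00 and 49% were positive. The shift was not particular to the 8: the median was 0.15 for their closest relatives (6 of 9 positive) and 0.16 for immediate early genes (9 of 11). It was 0.18 for glucocorticoid-induced genes (7 of 7) and 0.00 for 19 other small GTPases. None of the 8 was called (0% of 17261 genes, 1487 with an unadjusted p under 0.05, and 111 genes by DESeq2, none of them among the 8). Arhgef3 came nearest: its mean was 119 ± 5.53 CPM in mutants and 104 ± 8.76 in WT mice (SD, n = 6), the mutant value exceeded the WT mean in 6 of 6 libraries and exceeded every WT library in 5. Its log2 fold change was 0.19 (SE 0.05, adjusted p = 0.316), and over 20 alternative fits it ran from 0.15 to 0.22 with adjusted p from 0.0713 to 0.549. Without the WT library of discordant sex it was 0.15 (SE 0.04, adjusted p = 0.167), in a fit that called 41 genes. Gem had a mean of 5.15 ± 0.203 CPM in mutants and 4.20 ± 1.01 in WT mice, a log2 fold change of 0.29 (SE 0.14, adjusted p = 0.588), and 0.20 (SE 0.13) without that library. All 6 mutant values of Gem were above the WT mean, but they fell inside the WT range except for 1. For Arl4d the value was 0.39 (SE 0.21, adjusted p = 0.646), where 5 of the 6 mutants exceeded the average WT level, and 0.28 (SE 0.19) without that library, and for Arl5b it was 0.16 (SE 0.12), which became 0.06 (SE 0.07) without the discordant library. Rrad alone was negative, at -0.47 (SE 0.26, adjusted p = 0.653), and 0 of the 6 mutants exceeded the average WT level; it was -0.51 (SE 0.28) without that library. Rem2 (0.10, SE 0.11), Rasd1 (0.11, SE 0.09) and Rnd3 (0.03, SE 0.09) were closest to 0, and without it were at 0.06, 0.07 and 0.10.

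At 3 h the values with the most distance from 0 rested on 1 library. Rrad stood at 0.76 (SE 0.35, adjusted p = 0.782) and Gem at 0.55 (SE 0.24, adjusted p = 0.766), and without the mutant library of discordant sex these were 0.38 (SE 0.28) and 0.28 (SE 0.17). Arl4d moved from 0.19 (SE 0.27) to 0.01 (SE 0.24). Arhgef3, at 0.10 (SE 0.05), did not rest on it, with 0.12 (SE 0.06) in its absence. The other 4 genes lay between -0.04 and 0.11, and without that library Rem2 was at -0.05, Rasd1 at 0.11, Arl5b at 0.05 and Rnd3 at -0.07. No gene of the 8 was called, against 0.0115% of 17394 genes (1107 with an unadjusted p under 0.05), and DESeq2 called 47 genes, none of them among the 8. Without the mutant library of discordant sex, edgeR called 18 of 17516 genes, none of them among the 8.

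Over all 36 libraries, with time and sex in the fit, the 8 log2 fold changes of mutant against WT were all positive, from 0.02 (Rnd3) to 0.26 (Gem), where 50.4% of 17359 genes were positive. The 8 were measured in the same mice and several varied together, so their shared sign carries no test. None of the 8 was called, against 1.39% of the 17359 genes. The nearest was again Arhgef3, at 0.09 (SE 0.04, adjusted p = 0.18), and then Gem at 0.26 (SE 0.12, adjusted p = 0.293), which was 0.13 (SE 0.10, adjusted p = 0.541) without the 2 libraries of discordant sex. Arl4d stood at 0.25 (SE 0.15, adjusted p = 0.431) and Rrad at 0.24 (SE 0.21, adjusted p = 0.634), and these became 0.15 (SE 0.14) and 0.06 (SE 0.18). The 95% interval for Rem2 ran from -0.10 to 0.15 and that for Rnd3 from -0.10 to 0.13.

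**Figure D3:**
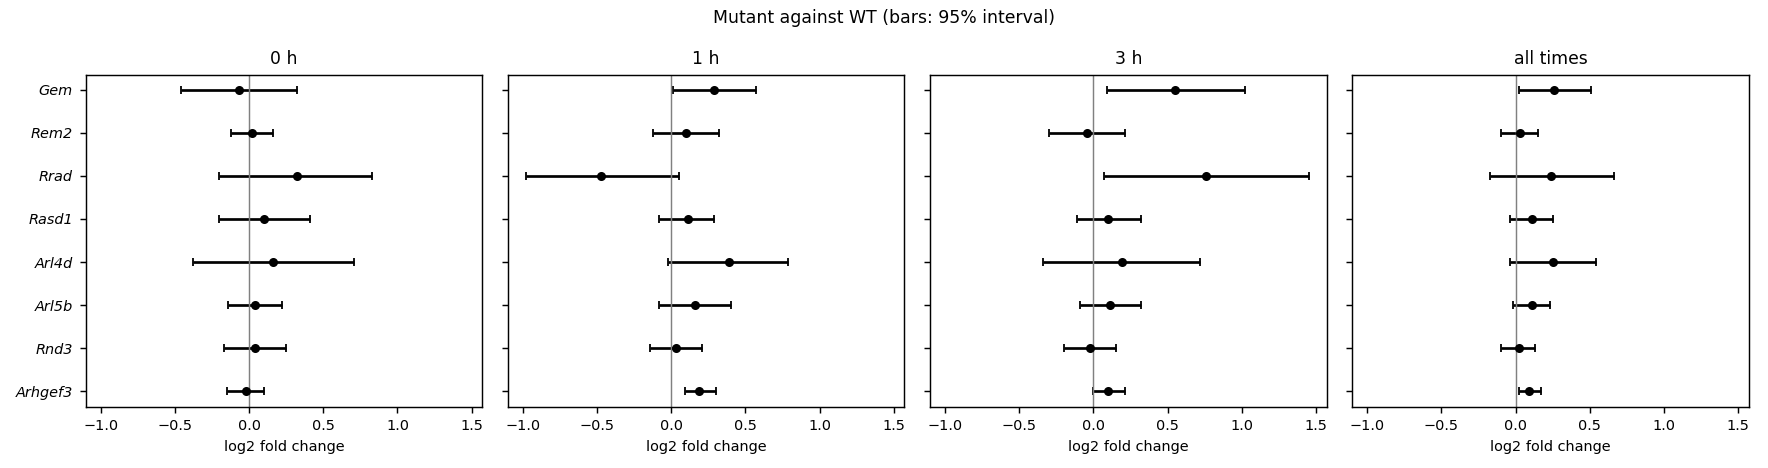
Log2 fold change of mutant against WT for each of the 8 genes at 0 h, 1 h and 3 h (6 against 6 libraries) and over all times (18 against 18); bars are 95% intervals from the standard error, not adjusted for the number of genes. Arhgef3 stood at 0.19 at 1 h and 0.09 over all times, Gem at 0.55 and Rrad at 0.76 at 3 h, and no value passed the adjusted threshold.

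The response to training was also compared between genotypes. None of the 8 was called for the 1 h response (0% of 17907 genes, 677 with an unadjusted p under 0.05) or the 3 h response (0% of 17926 genes, 273 with an unadjusted p under 0.05), and DESeq2 called 0 genes in both. At 1 h the mutant response minus the WT response was -0.77 (SE 0.40) for Rrad, 0.36 (SE 0.24) for Gem, 0.22 (SE 0.36) for Arl4d and 0.21 (SE 0.08) for Arhgef3, each with adjusted p = 0.999. Arl5b was at 0.12 (SE 0.15), Rem2 at 0.07 (SE 0.14), and Rasd1 and Rnd3 were both at 0.00, with SE 0.19 and 0.15. Without the 2 libraries of discordant sex the 1 h values were -0.84 (SE 0.41) for Rrad, 0.28 (SE 0.24) for Gem, 0.12 (SE 0.35) for Arl4d, 0.18 (SE 0.08) for Arhgef3 and 0.02 (SE 0.12) for Arl5b. Leaving out 1 library at a time, Arl4d ran from 0.01 (without the WT 0 h library labelled female 2) to 0.44 (without the mutant 0 h library labelled female 2). At 3 h Gem was at 0.63 (SE 0.32) and Rrad at 0.47 (SE 0.52), and without the 2 libraries of discordant sex these were 0.34 (SE 0.26) and -0.02 (SE 0.43). The call in mutants and not in WT mice for Gem, Arl5b and Arhgef3 at 1 h is therefore not shown to differ between genotypes. Between the sexes none was called, against 0.0864% of 17359 genes, which included the 5 sex-linked genes Xist, Ddx3y, Eif2s3y, Uty and Kdm5d. Values of female against male ran from -0.06 for Rasd1 (SE 0.08) and Arhgef3 (SE 0.03) to 0.15 for Gem (SE 0.12), and Gem was at 0.03 (SE 0.10) without the 2 discordant libraries.

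Markers of other cells were compared between genotypes as well. All 4 choroid plexus markers (Ttr, Kl, Folr1 and Aqp1) had negative log2 fold changes in mutants over the 36 libraries, with a median of -1.81 and none called. Their summed level varied widely within groups: at 0 h the WT range was 42.9 to 5635 CPM and the mutant range 62.8 to 2529, at 1 h they were 94.7 to 4419 and 55.1 to 1081, and at 3 h they were 41.4 to 7739 and 49.2 to 3504. Among the 5 dentate granule cell markers, C1ql2 was higher in mutants (0.74, SE 0.15, adjusted p = 0.00867), and 3 of the 5 were positive, with Dsp at -0.17 (SE 0.12) and Calb1 at -0.03 (SE 0.06). C1ql2 begins at chr1:120340582 and Kdm5b at chr1:134560178. Whether strain alleles near Kdm5b, inherited with the mutation in this F2 cross, add to the C1ql2 value was not tested. At 1 h the summed dentate level had a WT range of 332.7 to 454.7 CPM and a mutant range of 423.8 to 500.1, so that the groups overlapped, and C1ql2 stood at 0.97 (SE 0.13, adjusted p = 0.0875). The 3 thalamus, 4 oligodendrocyte and 4 astrocyte markers were all positive, with medians of 0.38, 0.13 and 0.08 and none called. Of 4 striatum markers 3 were positive, with a median of 0.20 over the 36 libraries and 0.50 at 0 h. In mutants at 1 h against 0 h all 4 striatum markers were negative, with a median of -0.33 and none called, led by Drd2 (-0.91, SE 0.28), and in WT the median was -0.06. The 4 choroid plexus markers were also negative at 1 h against 0 h, with a median of -0.70 in WT and -0.73 in mutants. At 3 h their medians in mutants were 1.35 against 0 h and 2.08 against 1 h, with all 4 positive, and in WT -0.23 and 0.48, and none was called. The part of these cells in the values of the 8 genes was not tested. In tissue RNA, fewer cells of a type and less RNA per cell cannot be told apart. Markers of dentate gyrus, CA1 and CA3 were present in all groups.

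The closest relatives of the 8 were followed to see how far the pattern at 1 h reached within families. None of 9 was called in any of the tests, in which 0% to 1.39% of all genes were called, so the absence says little. Their median log2 fold change at 1 h against 0 h was -0.01 in WT and 0.11 in mutants, beside 0.29 and 0.30 for the 8. The Arl4 relatives Arl4a (-0.12, SE 0.09 in WT, and -0.18, SE 0.08 in mutants) and Arl4c (-0.03, SE 0.07, and 0.11, SE 0.06) had no value like that of Arl4d. Arl5a stood at -0.01 (SE 0.06) and 0.01 (SE 0.07), and per kilobase it was above Arl5b in 36 of 36 libraries, at 16.5 ± 1.52 CPM per kb. Arl5c, at 1.04 to 3.12 CPM at 1 h, had -0.13 (SE 0.17) in WT and 0.47 (SE 0.19) in mutants. The WT mean of Arl5c was 1.58 CPM at 0 h and 1.44 at 1 h, and 1.3 at 1 h without the library of discordant sex. Rasd2 was at 0.08 (SE 0.12) and -0.13 (SE 0.08). Rnd1 and Rnd2 lay between -0.11 and 0.20. Net1, an exchange factor related to Arhgef3, was the relative nearest its partner, with 0.16 (SE 0.10) in WT and 0.32 (SE 0.08) in mutants. Rem1 stood at 0.68 (SE 0.33) in WT and 0.18 (SE 0.34) in mutants, at 0.0909 to 0.667 CPM over all libraries. Differences between a gene and its relative were not tested.

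**Figure D4:**
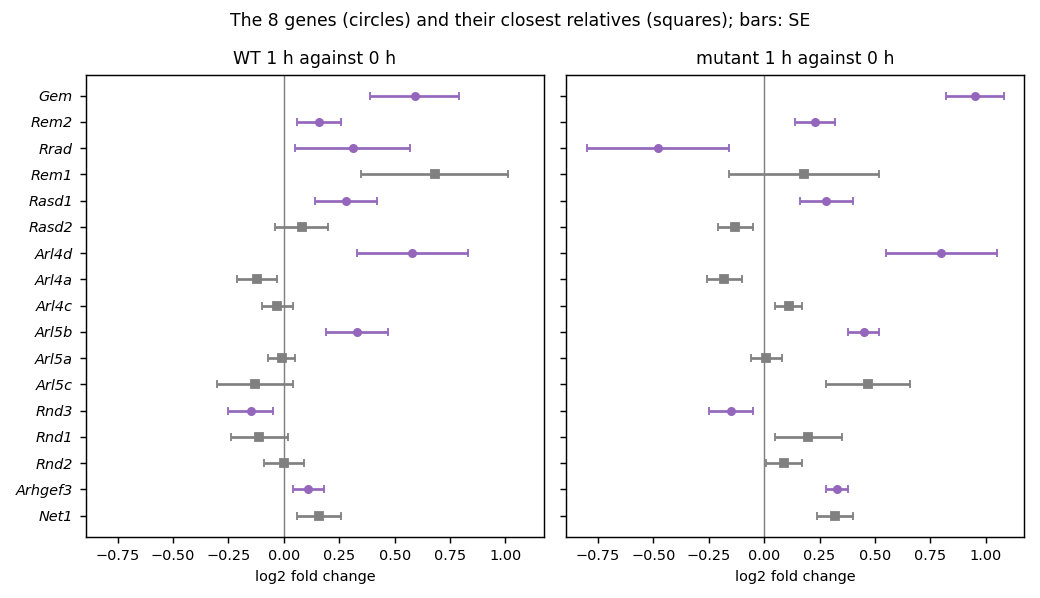
Log2 fold change at 1 h against 0 h of the 8 genes (circles) and of 9 close relatives (squares), grouped by family, in WT (left) and mutants (right); bars are the standard error, with 6 libraries per group. Arl4d, at 0.58 and 0.80, stands apart from Arl4a and Arl4c, and Arl5b, at 0.33 and 0.45, from Arl5a at -0.01 and 0.01.

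Transcripts of genes whose proteins act with those of the 8, and of other small GTPases, were also compared. No protein was measured. The lists held 9 calcium channel subunits and calmodulins, 7 genes tied to Rasd1, 8 tied to Arl4 and Arl5 proteins, and 19 other small GTPases. None of these genes was called in any of the tests, in which 0% to 1.39% of all genes were called. Their list medians at 1 h against 0 h lay between -0.02 and 0.01 in both genotypes, with genes on both sides of 0 in each list. Among them Cacnb1, a calcium channel beta subunit, had 0.06 (SE 0.05) in WT and 0.17 (SE 0.04) in mutants. All 11 immediate early genes had positive values at 1 h in both genotypes, with medians of 0.73 and 0.81, and 0 were called in WT, where 0% of all genes were, and 3 in mutants, where 0.312% were. The list was led by Egr2 (1.37, SE 0.50, and 1.85, SE 0.39) and Fosb (1.35, SE 0.20, and 1.37, SE 0.09). All 7 glucocorticoid-induced genes were also positive, with medians of 0.38 and 0.57, and 0 were called in WT and 2 in mutants, beside the same shares of all genes. None of these genes was called for a genotype difference of the 1 h response. This list was led by Sgk1 (0.68, SE 0.37, and 0.89, SE 0.38) and Pdk4 (0.59, SE 0.15, and 0.63, SE 0.11). Between genotypes no gene of these lists was called at any time, where 0% of all genes were called at 0 h and at 1 h and 0.0115% at 3 h.

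The genes most like each of the 8 differed for the most part, with Tiparp shared by Gem and Arl5b. Over the 36 libraries, which differ in training and depth and include both of discordant sex, the genes outside the 8 whose log2 CPM was most like that of Gem were Tiparp (Pearson r = 0.87), Gadd45b (0.84) and Tmem252 (0.83). Arl5b was most like Egr1 (0.87), Egr2 (0.85) and Tiparp (0.85). Arl4d was most like Nfkbia (0.92), Sgk1 (0.90) and Ddit4 (0.89), 3 genes that glucocorticoids also raise. Rasd1 was most like Lingo3 (0.84), Twf2 (0.83) and Jdp2 (0.82). Arhgef3 was most like Bcl6 (0.82), Ccdc43 (0.81) and Irs2 (0.80), Rnd3 like Nap1l5 (0.78), Rasgef1b (0.77) and Klhdc8a (0.76), and Rem2 like Zmat5 (0.72), Lrrc10b (0.68) and Fam160b2 (0.67). Rrad had the lowest values, with Syndig1l (0.67), Hlx (0.66) and Hic1 (0.66). Without the 2 libraries of discordant sex, Syndig1l was at 0.55 and Hic1 at 0.59 with Rrad, and the other 22 values moved by at most 0.03. These correlations are descriptions over libraries that differ by group.

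Within the 8, Gem and Arl5b were the closest pair, with r = 0.80 over the 36 libraries, followed by Gem and Arl4d (0.66), Gem and Arhgef3 (0.65) and Arl4d and Arhgef3 (0.64). Fos, an immediate early gene, had r = 0.83 with Gem and 0.84 with Arl5b, 0.58 with Arl4d and 0.14 with Rasd1. Rnd3 had negative values with Rasd1 (-0.48), Rem2 (-0.41) and Arhgef3 (-0.41). Rrad had no r over 0.24 with the others of the 8 or with Fos, Npas4 and Arc. Without the 2 libraries of discordant sex, Gem was at 0.82 with Arl5b and 0.73 with Arhgef3, and Rrad at 0.04 with Fos and -0.06 with Gem.

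**Figure D5:**
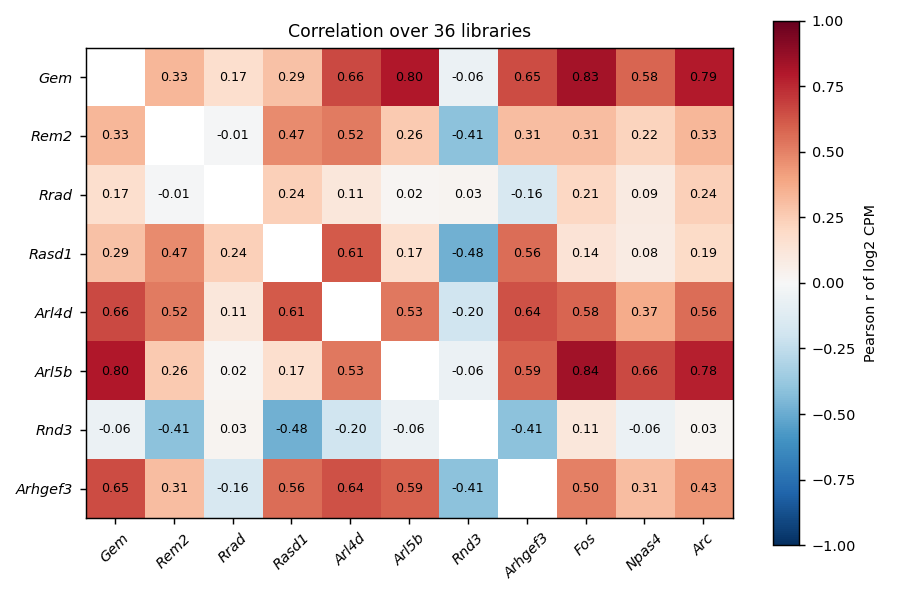
Pearson r of log2 CPM (prior count 2) over the 36 libraries between the 8 genes (rows) and the same genes with Fos, Npas4 and Arc (columns); the colour scale runs from -1 (blue) to 1 (red). Gem and Arl5b, at 0.80, have their highest values with each other and Fos, while the row of Rrad stays between -0.16 and 0.24.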

How the data were processed

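RNA was purified with poly-T beads, prepared with random hexamers and sequenced in 36 dorsal hippocampus libraries; per the labels and processing notes, the authors aligned reads to mm10 with STAR 2.7.8a and counted them per gene with featureCounts 2.0.1. The annotation, strand setting and multi-mapping rule are not given in the sources used here. The deposited values are raw counts, 1 file per library, of 27179 genes, of which 25275 took names from RefSeq; the 1904 unnamed rows held 1.28% of the counts. Each comparison was fitted on its own libraries with edgeR 4.0.16 (R 4.3.3), as a quasi-likelihood test with TMM scaling, filterByExpr (minimum count 10) and labelled sex as a covariate, with Benjamini-Hochberg adjustment over all genes tested; scripts were tested on simulated data. All 8 genes passed the filter in every comparison. CPM per kb used GENCODE vM21 exon lengths. Alternatives were DESeq2 1.42.0, RLE scaling, other filters, no sex term, 1 fit on 36 libraries, a replicate block, and leaving out each library or both of discordant sex. The genes and lists were chosen with earlier results of these data known. Genes named are the 8, 3 most like each by r, their relatives, and, per list, called genes or the 2 with the largest mean change at 1 h above 1 CPM. Nothing in the labels gives litters, so p-values measure the spread between mice. The 8 libraries of the first cohort were not analysed here. Of the partner lists, 1 is not reported here.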

Additional observations from a re-analysis of the deposited data

Results flagged for a closer look

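Among 48 gene and group combinations of 6 libraries, 4 held a library farther from the others than Dixon's 95% critical value for 6 samples, where chance flags about 1 in 20. Distances were taken on log2 CPM (prior count 2), and the values below are printed in CPM. Gem was 7.35 CPM in the mutant 3 h library labelled female 2, with the other 5 from 2.65 to 3.84. Arl5b was 14.6 CPM in the WT 1 h library labelled male 1, with the others from 22.3 to 27.4. These are the 2 libraries of discordant sex. Gem was 1.68 CPM in the mutant 0 h library labelled male 3, with the others from 2.65 to 3.26, and Rasd1 was 66.8 CPM in the WT 3 h library labelled female 2, with the others from 46.1 to 52.8.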

How the results depend on the processing

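Of 182 recomputed counts of called genes among the 8, 180 were equal to the reported count or within 1.5 times it. The reported count was 0 in every comparison but mutants at 1 h against 0 h. Most of the 180 are therefore 0 beside 0, which says little. DESeq2 called 1 of the 8 for WT 3 h against 1 h (Gem), and leaving out the 2 libraries of discordant sex gave 1 for mutant 3 h against 1 h (Gem); the cause was not tested. In mutants at 1 h against 0 h the count was 3 in every fit but 2: Arl5b was lost with all 36 libraries in 1 fit (count 2), and Arl4d was added without the mutant 0 h library labelled female 2 (count 4, among 86 genes called instead of 54). Over all genes that count also fell from 54 to 26 and 28 without the mutant 0 h libraries labelled male 3 and female 3, to 29 without 1 h female 3, and to 30 without 1 h male 2 or male 3, with 3 of the 8 called each time. Of the recomputed values between genotypes or sexes and of the response difference, 19 changed sign. Without the 2 discordant libraries, Rrad between sexes became -0.09, and the genotype differences of the 3 h response became -0.02 for Rrad and -0.16 for Arl4d; between time points, which were not tested, WT 3 h against 1 h became -0.02 for Rasd1, -0.02 for Rem2 and 0.03 for Rnd3, and mutant 3 h against 0 h -0.09 for Rrad. Leaving out 1 library at a time, mutant against WT at 0 h ran from -0.16 to 0.06 for Gem, -0.06 to 0.03 for Arhgef3, -0.03 to 0.05 for Rem2, -0.02 to 0.12 for Arl5b, -0.03 to 0.11 for Rnd3 and -0.08 to 0.38 for Arl4d, and at 3 h from -0.08 to 0.02 for Rnd3 and -0.14 to 0.06 for Rem2, all uncalled. The 1 h response difference of Rasd1 and Rnd3, reported as 0.00, ran from -0.06 to 0.10 and from -0.06 to 0.08. Leaving out the WT 1 h library labelled male 1 raised the genes called between genotypes at 1 h from 0 to 41, and leaving out the mutant 3 h library labelled female 2 raised those at 3 h from 2 to 18, with 0 of the 8 in both.

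The replicate numbers did not pair the samples: over 54 same-numbered pairs the correlation of deviations ran from -0.30 to 0.20. With a replicate block, Gem in mutants at 1 h was at 0.97 and the count stayed at 3; the block changed no count among the 8, and over all genes it moved the calls between genotypes from 0 to 5 at 1 h and from 2 to 0 at 3 h. Over all genes, counts differed by over 1.5 times between edgeR and DESeq2: 0 and 15 at 0 h, 0 and 111 at 1 h, 2 and 47 at 3 h, 242 and 563 over 36 libraries, and 54 and 370 in mutants at 1 h against 0 h; without the discordant libraries 508 were called over 36 libraries. Depth limits Rrad, which rested on 18 to 150 counts; an interval that includes 0 does not show that genotypes are alike.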
